A study of Homo sapiens with 14 samples.

Results

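The mirtron miRNAs read in A549 cells, a human lung adenocarcinoma line, comprised 10 mature arms of 8 hairpins (miR-877, miR-1224, miR-1225, miR-1226, miR-1227, miR-1228, miR-1229 and miR-1236) among the 2588 mature miRNAs of 2 count tables. They were chosen by name, 6 as 5p arms and 4 as 3p arms. Small RNA was enriched for internal N7-methylguanosine (m7G), a guanine with a methyl group on N7, in 2 ways. In BoRed-seq, A549 RNA was reduced with NaBH4 in the presence of free m7GTP, the sites left without a base after acid treatment were bound by a biotin probe, and the RNA was captured on streptavidin beads (Red, 2 libraries). The control RNA went through the same steps with acid-quenched NaBH4 (Ctrl, 2 libraries). In m7G-RIP-seq, decapped and heat-denatured A549 RNA was precipitated with an antibody against m7G (IP, 5 libraries), and an aliquot of the same RNA was kept as Input (5 libraries). The labels name no treatment of the cells behind the 14 libraries, and nothing in the labels says whether the replicates were separate cultures, so that p-values measure the spread between these libraries, which may be technical.

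Most miRNA hairpins are cut out of a primary transcript by the nuclease Drosha. A mirtron hairpin is instead a short intron that the spliceosome releases and that is debranched and folded before Dicer cuts it into a 5p and a 3p arm. Because the ends of the hairpin are splice sites, its 5p arm starts at the 5′ splice site with GU, and its 3p arm ends at the 3′ splice site with AG after a tract of pyrimidines.

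The sequences of the listed arms follow that plan. In the RefSeq annotation of GRCh38.p14, each of the 8 hairpins had exactly the start and end of an annotated intron of its host gene in GENCODE release 44 (the same build, hg38). The 6 5p arms began at base 1 of the intron and the 4 3p arms ended at its last base. Among the opposite arms left off the list, miR-1236-5p began at base 2 and miR-1228-3p ended 2 bases before the end. The mature arms are shown because their base content, above all that of G, the base that m7G methylation changes, parts the 5p from the 3p arms. The seed (bases 2 to 8) is in capitals:
hsa-miR-877-5p: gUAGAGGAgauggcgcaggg
hsa-miR-877-3p: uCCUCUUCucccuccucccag
hsa-miR-1224-5p: gUGAGGACucgggaggugg
hsa-miR-1225-5p: gUGGGUACggcccagugggggg
hsa-miR-1226-5p: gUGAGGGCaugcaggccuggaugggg
hsa-miR-1226-3p: uCACCAGCccuguguucccuag
hsa-miR-1227-5p: gUGGGGCCaggcggugg
hsa-miR-1228-5p: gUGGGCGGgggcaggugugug
hsa-miR-1229-3p: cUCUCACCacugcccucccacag
hsa-miR-1236-3p: cCUCUUCCccuugucucuccag

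No seed was shared by any pair of these arms. The 5p arms held 53.9% G (miR-1226-5p) to 66.7% G (miR-1228-5p) and the 3p arms 4.76% G (miR-877-3p) to 18.2% G (miR-1226-3p), against a median of 27.3% over the 2281 miRNAs of the tables with a RefSeq sequence. A motif of 4 runs of at least 2 Gs with 1 to 7 bases between them, a pattern that can fold into a G-quadruplex, was looked for on the strand of the mature RNA. The bases between could be G as well, so a long run of G could count as more than 1 run. The motif was found in 5 of the 6 5p arms, all but miR-877-5p, and in none of the 4 3p arms. Of the 2281 sequences, 6.93% held it. miR-877-5p has 3 unbroken runs of at least 2 Gs. So do miR-1225-5p and miR-1228-5p, which matched because their longest runs, of 6 and 5 Gs, could be split. A match is a description of letters, not of a fold.

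The introns lie on several chromosomes. The miR-877 arms are at chr6:30584332-30584351 (5p) and chr6:30584397-30584417 (3p), plus strand, in an intron of ABCF1, which encodes an ABC-family protein that acts in translation initiation. miR-1224-5p is at chr3:184241405-184241423, plus strand, in an intron of VWA5B2. The miR-1226 arms are at chr3:47849555-47849580 (5p) and chr3:47849608-47849629 (3p), plus strand, in an intron of DHX30, an RNA helicase gene. miR-1229-3p is at chr5:179798278-179798300, minus strand, in an intron of MGAT4B, a gene for a glycosyltransferase of N-glycans. The remaining arms are in introns of PKD1, which encodes polycystin-1 (miR-1225-5p), PLEKHJ1 (miR-1227-5p), the lipoprotein receptor gene LRP1 (miR-1228-5p) and NELFE, which encodes a subunit of the negative elongation factor (miR-1236-3p). The NELFE intron overlaps an exon of another annotated NELFE transcript on the same strand, so reads could also come from that exon. Each miR-877 arm had 6 further exact copies, and miR-1236-3p 5, on alternate contigs of the same assembly and none on another chromosome; whether the alignment used those contigs is not given in the sources used here.

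Library totals were 242085 and 277498 in Red, 4678102 and 5874405 in Ctrl, 2854811 to 6452759 in IP and 7097379 to 14874685 in Input. Red therefore limits what can be seen of a scarce arm: a miRNA with 0 reads in the smaller Red library could still be up to 0.00124% of it, the share of 3 counts. The epithelial miRNAs miR-200c-3p and miR-375 were present in the 7 Ctrl and Input libraries (12.4 to 88.2 and 18.8 to 92.0 CPM, counts scaled to a library of 1000000) and miR-21-5p was at 380000 to 804000 CPM, while the other epithelial markers were at or near 0 (miR-141-3p 0 to 2.38, miR-205-5p 0 to 1.88 and miR-203a-3p 0 CPM). Markers of blood cells (5 of 5) reached at most 0.768 CPM, whereas miR-9-5p, known from neurons, and miR-126-3p, known from endothelium, were at 301 to 697 and 267 to 515 CPM. The other neuronal marker, miR-124-3p, was at 0 to 1.21 CPM, and the fibroblast and smooth muscle markers miR-143-3p and miR-145-5p at 5.51 to 37.8 and 0 to 1.61 CPM. The part of these miRNAs in the results was not tested. In m7G-RIP-seq, replicates 1 to 3 stood apart from replicates 4 and 5. The labels name no batch, and for the 6 tested arms the enrichment is given within both sets.

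The mirtron arms were scarce, and a single arm, miR-877-5p, held most of their reads. Each read covers a whole mature miRNA, so levels are given in CPM and are not divided by length. In Input, miR-877-5p stood at 52.4 ± 28.6 CPM (SD, n = 5), which ranked 194 of 2588. miR-1226-3p (11.5 ± 4.39), miR-877-3p (10.1 ± 3.91) and miR-1224-5p (7.15 ± 4.45) followed, and these neighbours differed by less than their SD. miR-1229-3p was at 3.14 ± 2.26 and miR-1226-5p at 1.66 ± 0.962 CPM. The other 4 arms were nearly absent. miR-1227-5p had 0 reads in all 14 libraries, which allows a share of up to 2.02e-05% in the deepest one. miR-1225-5p had 5 reads, all in Input replicate 3, and 1 read in Red. miR-1228-5p had 6 reads in Input, 4 in IP, 1 in Red and 0 in Ctrl, and miR-1236-3p had 14 in Input, 12 in IP and 0 in BoRed-seq. In Ctrl the order began the same way, with miR-877-5p at 17.0 ± 3.52 CPM (SD, n = 2) and no other arm above 1.30.

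BoRed-seq asked which of these arms were recovered after reduction of m7G. miR-877-5p was recovered above its control level, and it was the only 1 of the 10 arms that reached 10 counts in 2 libraries, the minimum for the test. It had 85 and 91 reads in Ctrl and 54 and 66 in Red, although the Red libraries were far shallower. Its normalized count, the count divided by the size factor of DESeq2, was 23.5 and 33.8 in Ctrl and 199.98 and 162 in Red. Both Red libraries lay above both Ctrl libraries, an order whose share over all miRNAs was not counted. The rise was 6.30-fold, or 2.66 ± 0.445 (SE) on the log2 scale, and passed the DESeq2 Wald test (adjusted p = 1.02e-08). Of the 400 miRNAs with an adjusted p, 32.2% were enriched, so that a call in Red was common. Enrichments are relative to the typical miRNA, and dividing by the library total in place of the size factor raised the log2 enrichments of all miRNAs by a median of 1.12 and that of miR-877-5p to 3.77. Leaving out Ctrl replicate 1 lowered it to 1.64 (adjusted p = 0.0325, DESeq2).

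The scarcer arms were too few in BoRed-seq for a call, yet several had more reads in Red than the depth would give. miR-877-3p had 9 and 4 reads in Ctrl and 6 and 4 in Red. Over the summed reads, and scaled by the size factors, this was 7.14-fold higher in Red, with an exact 95% interval of 2.80 to 17.6 that covers counting error only. miR-1224-5p, the 5p arm from VWA5B2, had 9 and 5 reads in Ctrl and 4 and 10 in Red, a 9.29-fold ratio (4.10 to 21.0). miR-1226-3p had 5 and 5 reads in Ctrl and 2 and 4 in Red, a 5.57-fold ratio (1.66 to 16.9). For these 3 arms both Red libraries were above both Ctrl libraries. The share of all miRNAs with such an order was not counted, and with 2 against 2 libraries an exact permutation p cannot go below 0.333. When all miRNAs were fitted without the count minimum, the log2 enrichments were 2.50 ± 1.45 (adjusted p = 0.159), 2.71 ± 1.32 (adjusted p = 0.0915) and 1.93 ± 1.82 (adjusted p = 0.415, SE, DESeq2), none of them past the threshold. miR-1229-3p had 2 and 5 reads in Ctrl and 1 and 0 in Red, and its ratio of 1.33 had an interval of 0.0294 to 10.3, so that no difference was detectable at this depth. miR-1226-5p had 2 reads in Ctrl and 1 in Red, with a ratio of 4.64 and an interval of 0.0787 to 89.2.

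**Figure D1:**
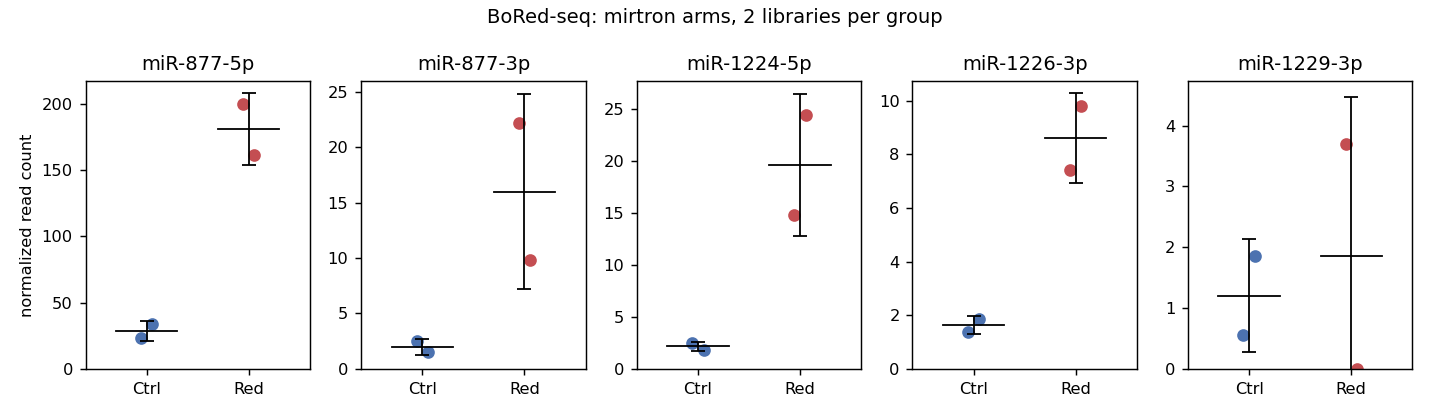
Normalized read counts (vertical axis, linear and starting at 0) of 5 mirtron arms in the 2 Ctrl (blue) and 2 Red (red) BoRed-seq libraries. Points are libraries, lines means and bars SD; the Red libraries of miR-877-5p (199.98 and 162) lie above its Ctrl libraries (23.5 and 33.8), and the other 4 arms rest on 10 reads or fewer in any library.

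In m7G-RIP-seq, which asked which arms the antibody enriched, 6 of the 10 arms passed the minimum of 10 counts in 5 libraries. Of these, miR-877-5p and miR-1224-5p, both 5p arms, were enriched and none was depleted. Over all 670 miRNAs tested, 27.3% were enriched and 29.9% depleted. Of all 256 tested 5p arms, mirtrons or not, 32.0% were enriched, and of all 274 tested 3p arms 19.7%. The 3 tested 5p arms of the mirtrons had a median log2 enrichment of 1.46 and the 3 tested 3p arms one of 0.02, against 0.03 and -0.15 over all tested 5p and 3p arms. These are descriptions of few arms, and 4 of the 10 are not in them. Nor is miR-1237-3p, a mirtron 3p arm outside the list that was tested and enriched (log2 enrichment 2.38, DESeq2 adjusted p = 4.96e-09).

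miR-877-5p showed the highest enrichment of the 6. Its normalized counts in Input replicates 1 to 5 were 252.1, 276, 321, 702 and 524, and in IP replicates 1 to 5 they were 2147, 3523, 4598, 4606 and 4839.9. Every IP library was above every Input library, which held for 18.2% of the 670 miRNAs. The rise was 9.49-fold (log2 enrichment 3.25 ± 0.344, SE, DESeq2 adjusted p = 6.19e-20), and within pairs of the same number it ran from 6.56-fold to 14.3-fold. Its rank by mean CPM went from 194 in Input to 70 in IP. In Input its level was lower in replicates 1 to 3 (283 ± 34.8, SD, n = 3) than in replicates 4 and 5 (613 ± 126, SD, n = 2), and the log2 enrichment was 3.58 in the first set and 2.86 in the second (adjusted p = 2.82e-48 and 3.49e-71, DESeq2).

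miR-1224-5p was enriched less, by nearly the same factor in every pair. Its normalized counts were 88.2, 90.2, 87.5, 16.8 and 18.1 in Input and 251.9, 233, 221, 59.8 and 63.4 in IP. The groups overlapped, because the level in both was lower in replicates 4 and 5 (Input 17.5 ± 0.950 and IP 61.6 ± 2.59, SD, n = 2 each) than in replicates 1 to 3 (88.6 ± 1.39 and 235 ± 15.5, SD, n = 3 each). Within each pair of the same number, however, IP was higher in 5 of 5, by 2.53-fold to 3.56-fold. The share of all miRNAs with IP higher in every pair was not counted. The fit without pairs gave a log2 enrichment of 1.46 ± 0.598 (SE, adjusted p = 0.0267, DESeq2). This call was lost when Input replicate 4 or 5 or IP replicate 1, 2 or 3 was left out (adjusted p = 0.0660 to 0.0755) and in the quasi-likelihood test of edgeR (adjusted p = 0.0507). Within replicates 1 to 3 it was 1.39 (adjusted p = 4.04e-05) and within replicates 4 and 5 1.74 (adjusted p = 0.0122, DESeq2). With the replicate number as a block the log2 enrichment was 1.55 (adjusted p = 1.37e-08, DESeq2), in a fit that called 28.7% of the 670 miRNAs enriched.

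The third 5p arm tested, miR-1226-5p, did not pass the threshold. It had 9, 36, 35, 9 and 13 reads in Input and 3, 26, 0, 13 and 4 in IP. Its log2 enrichment was -0.34 ± 0.867 (SE, adjusted p = 0.758, DESeq2), and the IP library exceeded its Input in 2 of 5 pairs. It was -0.67 within replicates 1 to 3 and 0.47 within replicates 4 and 5 (adjusted p = 0.687 and 0.796, DESeq2), and with library totals in place of size factors the value over all replicates turned to 0.031. IP replicate 3, the shallowest IP library, held no read of either arm of this hairpin, which allows each a share of up to 0.000105% of it.

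Among the 3p arms, miR-1226-3p, the more abundant arm of its hairpin, had normalized counts of 75.7, 68.6, 68.6, 115 and 132 in Input and 32.97, 97.2, 0, 73.0 and 54.6 in IP. The groups overlapped and the log2 enrichment of -0.83 ± 0.647 was not called (SE, adjusted p = 0.269, DESeq2). Over replicates 1 to 3 alone it was -0.72 (adjusted p = 0.522, DESeq2), and over replicates 4 and 5 alone -1.03 (adjusted p = 0.0284, DESeq2), in a fit that called 31.5% of 772 miRNAs depleted. miR-1229-3p, from MGAT4B, had normalized counts of 4.52, 19.7, 23.1, 48.5 and 28.8 in Input and 29.0, 32.0, 65.3, 66.9 and 71.1 in IP. IP was higher in 5 of 5 pairs, by 1.38-fold to 6.42-fold, an order whose share over all miRNAs was not counted. The groups overlapped through Input replicate 4. Its log2 enrichment was 1.07 ± 0.539 (SE, adjusted p = 0.0771, DESeq2), and with the replicate block 1.24 (adjusted p = 0.0115), which is past the threshold. It was also past it with library totals (adjusted p = 0.0249, DESeq2). Those raised the log2 enrichments of all miRNAs by a median of 0.332 and the number enriched from 183 to 232. miR-1229-3p was past the threshold too with a term for the sets (0.0183) and without Input replicate 4 (0.0181) or IP replicate 1 (0.0404). It was not within replicates 1 to 3 (1.37, adjusted p = 0.161) or replicates 4 and 5 (0.75, adjusted p = 0.257, DESeq2). This 3p arm holds 8.70% G.

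miR-877-3p was lower in IP in replicates 4 and 5, and its enrichment differed between the 2 sets of replicates. Its normalized counts in Input were 52.0, 55.9, 83.3, 111 and 101, and in IP 187, 94.8, 67.4, 37.5 and 21.6. The IP libraries of replicates 4 and 5 lay below all Input libraries, those of replicates 1 and 2 lay above their own Input, and that of replicate 3 lay below its own, at 0.809 of it. Over all libraries the log2 enrichment was 0.02 ± 0.526 (SE, adjusted p = 0.981, DESeq2), and it was -0.29 with the replicate block (adjusted p = 0.663). In replicates 1 to 3 alone it was 0.85, not past the threshold (adjusted p = 0.152), and in replicates 4 and 5 alone it was -1.91 (adjusted p = 0.000572, DESeq2). The enrichment in replicates 4 and 5 was lower than in replicates 1 to 3 by 2.71 ± 0.731 on the log2 scale, as an interaction in DESeq2 (adjusted p = 0.00157, 26.8% of 488 miRNAs called). For miR-877-5p the same interaction was -0.65 ± 0.363 (adjusted p = 0.187) and for miR-1224-5p 0.41 ± 0.462 (adjusted p = 0.596).

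**Figure D2:**
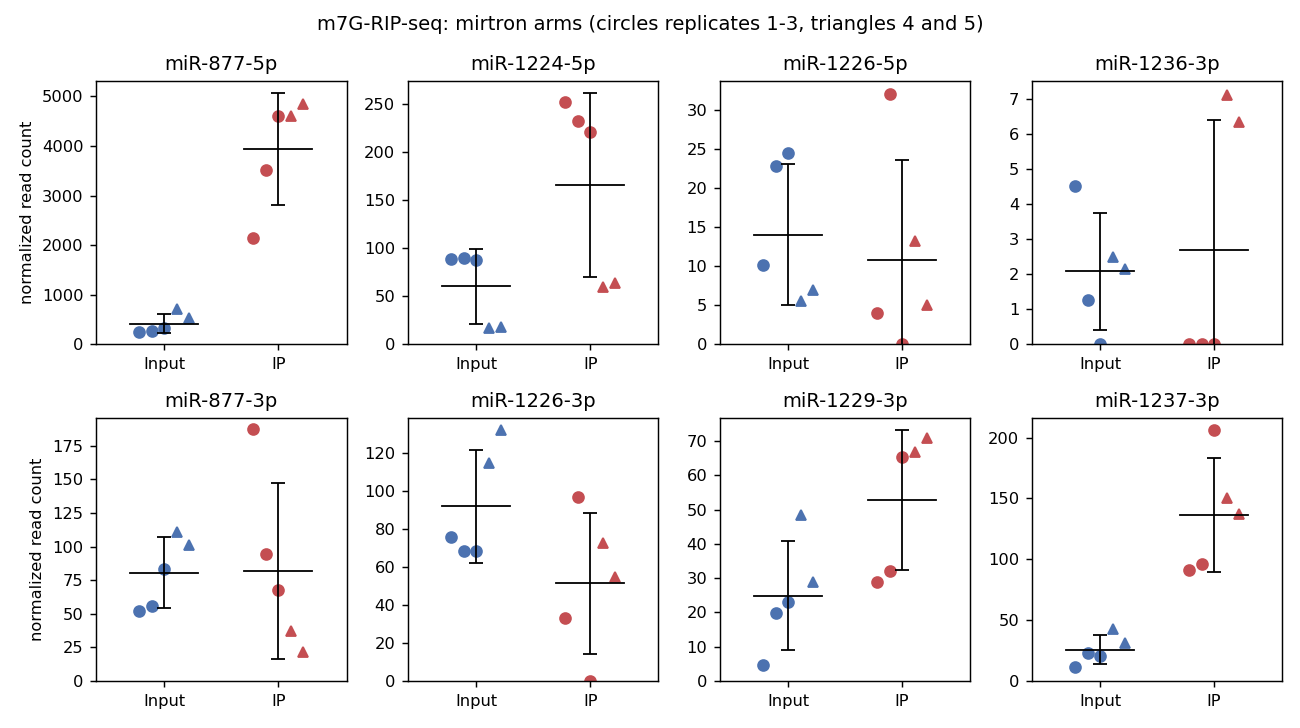
Normalized read counts (vertical axes, linear, starting at 0 and scaled for each arm) of 7 mirtron arms of the list and of miR-1237-3p in the 5 Input (blue) and 5 IP (red) libraries of m7G-RIP-seq. Circles are replicates 1 to 3, triangles replicates 4 and 5, lines means and bars SD; miR-877-5p and miR-1237-3p do not overlap between the groups, while miR-1224-5p separates within each set of replicates.

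The ratio of 5p to 3p reads of a hairpin is taken within a library and does not depend on how libraries are scaled. For miR-877 the ratio moved toward 5p in the IP. The 5p arm made up 79.4% to 86.4% of the reads of both arms in the 5 Input libraries and 92.0%, 97.4%, 98.6%, 99.2% and 99.6% in IP replicates 1 to 5. The 95% Wilson interval of IP replicate 1 was 90.6% to 93.2%, above the 84.4% to 88.1% of Input replicate 4, the highest Input. The mean log2 ratio, with 0.5 added to each count, was 2.31 ± 0.258 in Input and 5.90 ± 1.64 in IP (SD, n = 5 each). The shift of 3.59 had a two-sided exact permutation p of 0.00794, the smallest that 5 against 5 can give, and an adjusted p of 0.0220 over the 155 hairpins with both arms read. Of these hairpins 24.5% shifted toward 5p, and 17 had a larger shift than miR-877. The ratio in IP spread widely, and the shift was 2.76 in replicates 1 to 3 (limma adjusted p = 0.0252) and 4.83 in replicates 4 and 5 (limma adjusted p = 0.00387).

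For miR-1226 the 3p arm was the main product in both groups. Its log2 5p to 3p ratio was -2.87 ± 1.36 in Input and -2.03 ± 1.30 in IP (SD, n = 5 each), and the shift of 0.84 was not past the threshold (two-sided exact permutation p = 0.357, adjusted p = 0.461). The value of IP replicate 3 is set by the added 0.5 alone, and without it the shift was 0.34. For miR-1224 the 3p arm was too scarce for the test of hairpins with both arms read. Its 5p arm made up 95.1%, 80.7%, 83.3%, 69.2% and 68.0% of the reads in Input and 98.0%, 98.4%, 100%, 100% and 98.0% in IP. Over the 353 hairpins with 10 counts in the sum of both arms, of which 13.9% shifted toward 5p, its shift was 4.04 (two-sided exact permutation, adjusted p = 0.0350). miR-1224-3p had 4, 34, 25, 12 and 16 reads in Input and 4, 3, 0, 0 and 1 in IP. Summed, it was at 0.170 of its Input level, with an exact interval of 0.0711 to 0.349 that covers counting error only. In the same test the shift of miR-1229 was 0.26 (adjusted p = 0.881), and miR-1237 had a value of -2.55, toward 3p, that was not past the threshold (two-sided exact permutation, adjusted p = 0.0572). The annotated miR-1237-5p starts at base 50 of its hairpin of 102 bases, not at the 5′ splice site.

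No such shift was seen for miR-877 in BoRed-seq. Its 5p arm made up 90.4% and 95.8% of the reads in Ctrl and 90.0% and 94.3% in Red. The mean log2 ratio was 3.76 ± 0.831 in Ctrl and 3.48 ± 0.578 in Red (SD, n = 2 each), a difference of -0.28. A permutation test of 2 against 2 cannot go below 0.333, and limma over 235 hairpins gave an adjusted p of 0.792. The 3p arm rested on 4 to 9 reads in each library, and leaving out 1 library at a time moved the difference between -0.87 and 0.31. The shift in m7G-RIP-seq minus that in BoRed-seq was 3.87 as an interaction in limma, which was not past the threshold (adjusted p = 0.0691, with 10.1% of 228 hairpins called). For miR-1224 the log2 ratio rose from 1.90 in Ctrl to 3.78 in Red, from 3 and 0 reads of its 3p arm in all, and limma gave an adjusted p of 0.0917.

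**Figure D3:**
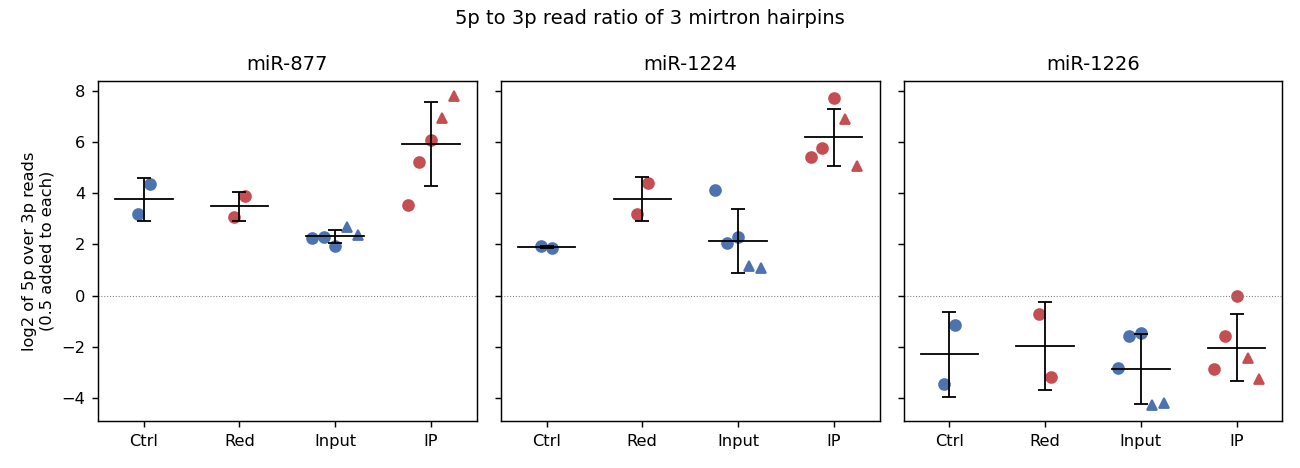
Log2 ratio of 5p to 3p reads (0.5 added to each count) of miR-877, miR-1224 and miR-1226 in each library of BoRed-seq (Ctrl, Red) and m7G-RIP-seq (Input, IP). Circles in Input and IP are replicates 1 to 3, triangles replicates 4 and 5, lines means and bars SD; the IP libraries of miR-877 (mean 5.90) lie above its Input libraries (mean 2.31), its Ctrl and Red libraries overlap, and miR-1226 stays at or below 0.

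The enrichment of miR-877-5p could be compared between the assays. It was 3.25 in m7G-RIP-seq and 2.66 in BoRed-seq on the log2 scale, a difference of 0.59 ± 0.563 (SE), with a 95% interval of -0.511 to 1.69 (z test of the DESeq2 estimates, adjusted p = 0.423). Of the 384 miRNAs that both assays could test, 38.0% differed in this test. With library totals in place of size factors the difference turned to -0.22 (adjusted p = 0.796). Without Ctrl replicate 1 the difference was 1.61 (adjusted p = 0.0967), and as an interaction in 1 DESeq2 fit of both assays it was 1.04 (adjusted p = 0.161). No other arm was called in both assays or could be compared in this way.

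Of the 10 remaining arms of these and of the neighbouring mirtrons miR-1237 and miR-1238, 9 stayed under the minimum for the test in m7G-RIP-seq, at 0 to 1.42 CPM in Input. The 1 that passed, miR-1237-3p, was at 3.22 ± 1.74 CPM in Input (SD, n = 5), close to miR-1229-3p, and it was enriched in IP. It is the 3p arm of an intron of RPS6KA4, a gene for a kinase that acts downstream of MAP kinases, at chr11:64368683-64368703, plus strand, and it is printed because it is a 3p arm that was called:
hsa-miR-1237-3p: uCCUUCUGcuccgucccccag

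miR-1237-3p holds 14.3% G. Its normalized counts were 11.3, 22.9, 20.3, 42.9 and 30.9 in Input and 91.0, 96.0, 207, 150.0 and 137 in IP. Every IP library was above every Input library, as for 18.2% of the 670 tested miRNAs. miR-1237-3p was higher in 5 of 5 pairs, by 3.50-fold to 10.2-fold. Its log2 enrichment was 2.38 ± 0.389 (SE, adjusted p = 4.96e-09, DESeq2), in the fit that called 27.3% of the 670 enriched. In BoRed-seq it had 3 and 6 reads in Ctrl and 0 and 4 in Red, a ratio of 4.13 with an exact interval of 0.929 to 14.8. Of the others, miR-1229-5p had 0, 7, 6, 3 and 6 reads in Input and 0, 5, 10, 36 and 4 in IP, a ratio of 4.82 that rests mostly on IP replicate 4.

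G content moved with the enrichment over all miRNAs, and the mirtron arms lay on both sides of that relation. Of the 670 tested miRNAs 602 had a RefSeq sequence, and across them Pearson's r between the percentage of G and the log2 enrichment in m7G-RIP-seq was 0.432, and Spearman's rho 0.449. In BoRed-seq Pearson's r was 0.408 over 355 miRNAs. All miRNAs share the same libraries and their depth, so these are descriptions. Of the miRNAs with at least 50% G, 41 of 54 were enriched in m7G-RIP-seq and 0 depleted, and in BoRed-seq 21 of 23 were enriched. miR-877-5p (55.0% G) and miR-1224-5p (57.9% G) were among those enriched, and miR-1226-5p (53.9% G) was among those that were not. Of the miRNAs under 20% G, 22 of 161 were enriched and 66 depleted. miR-877-3p, miR-1226-3p and miR-1229-3p belonged to this class, none of them called, as did miR-1237-3p, which was enriched. The G-run motif was in 33 of the 602 sequences (5.48%), 21 of them enriched. miR-1224-5p holds it and so does miR-1226-5p, while miR-877-5p, the most enriched of the mirtron arms, does not.

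**Figure D4:**
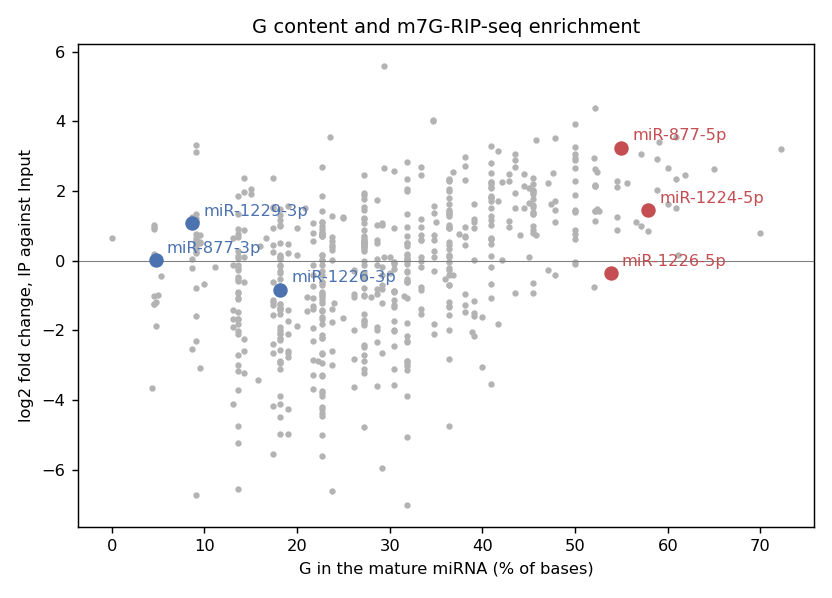
Percentage of G in the mature miRNA (horizontal axis) and log2 fold change of IP against Input (vertical axis) of the 602 tested miRNAs with a RefSeq sequence (grey). The 3 tested 5p mirtron arms (red) hold 53.9% to 57.9% G and lie at 3.25, 1.46 and -0.34, and the 3 tested 3p arms (blue) hold 4.76% to 18.2% G and lie at 0.02, -0.83 and 1.07.

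The same was seen for whole hairpins. Across the 138 hairpins with both arms read and both sequences at hand, Pearson's r between the G content of the 5p minus the 3p arm and the shift of the arm ratio in IP was 0.476 and Spearman's rho 0.510, again a description. The arms of miR-877 differed by 50.2 percentage points of G and those of miR-1226 by 35.7, against a median of 4.05. Of the 25 hairpins whose arms differed by at least 30 points, 14 shifted toward 5p and 0 toward 3p, with a median shift of 2.18. miR-877 lay above that median and miR-1226, at 0.84, below it.

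**Figure D5:**
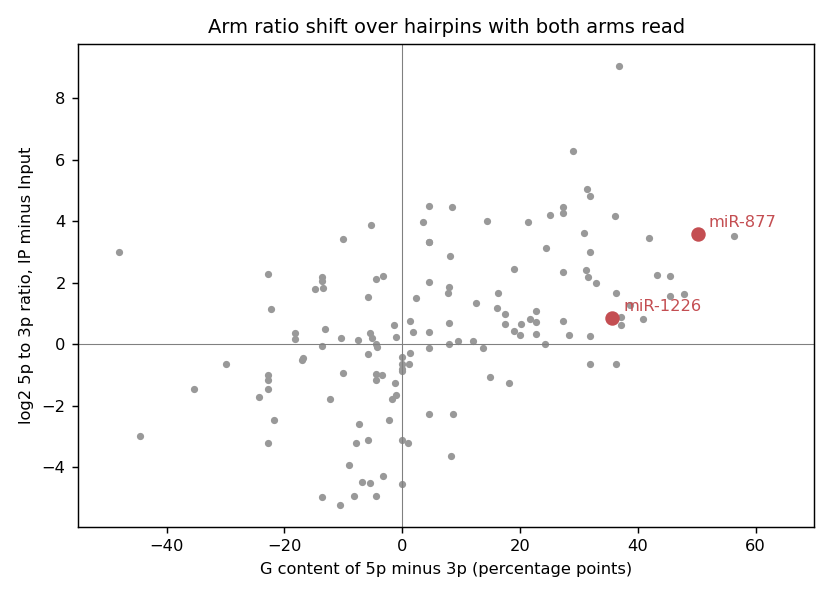
G content of the 5p arm minus that of the 3p arm (horizontal axis, percentage points) and shift of the log2 5p to 3p ratio from Input to IP (vertical axis) of 138 hairpins (grey). miR-877 (50.2 points, shift 3.59) and miR-1226 (35.7 points, shift 0.84) are in red.

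The miRNAs whose pattern over the 10 m7G-RIP-seq libraries was most like that of miR-877-5p, by Pearson's r of log2 normalized counts plus 1 among 312 candidates, were miR-485-5p (0.992), miR-191-5p (0.981) and miR-1275 (0.977). Their log2 enrichments were 1.64, 1.07 and 2.92, and they held 36.4%, 21.7% and 58.8% G. The 10 libraries fall into IP and Input, so r also holds the difference between these groups.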

How the data were processed

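Small RNA libraries of A549 cells were counted over mature miRNAs in 2 assays. Per the study's methods, the authors trimmed adaptors with Trimmomatic, aligned reads end to end to GRCh38 with STAR (at most 1 mismatch, at least 16 matched bases, at most 10 loci) and counted them over miRBase 22 with featureCounts; the submitters' processing notes name Bowtie2. The deposited values are raw counts per miRNA, neither normalized nor pooled. Both tables held 2588 miRNAs, 0 entries that name no miRNA and 0 columns that match no sample. Reads that fit several loci could be counted at each.

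Enrichment was tested with the DESeq2 1.42.0 Wald test (R 4.3.3) over all miRNAs with at least 10 counts in 2 (BoRed-seq) or 5 (m7G-RIP-seq) libraries. Adjusted p-values are Benjamini-Hochberg values over the whole table, called under 0.05. Log2 enrichments are not shrunken. Arm ratios were tested with exact permutation over samples, and with limma 3.58.1 as an alternative; edgeR 4.0.16 was another. The DESeq2, edgeR and limma fits were tried on simulated data, and the permutation test on a fixed example with a known answer. The named arms are the 10 of the list, 10 other mirtron arms and the 3 miRNAs most like miR-877-5p among those averaging 100 or more normalized counts. The members and lists were chosen with earlier results of these data known. Input and IP of the same number were taken as pairs, since the methods describe Input as an aliquot of the precipitated RNA and their deviations correlated in all 5 pairs (r = 0.146 to 0.387). Libraries of different number within a set correlated about as well (r = 0.0760 to 0.373), and 3 of 5 Inputs correlated best with their own IP, so the correlations follow the 2 sets and do not single out the pairs. Intervals are 95% Wilson intervals for shares and exact ones for ratios, and cover counting error only, since the tables hold no molecular identifiers. Differences between the 2 sets of replicates and between the assays in arm ratio were tested after the data had been seen.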

Additional observations from a re-analysis of the deposited data

Results flagged for a closer look

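The enrichment of miR-877-3p differed between the sets of m7G-RIP-seq replicates by -2.71 ± 0.731 on the log2 scale (replicates 4 and 5 minus 1 to 3, SE, DESeq2 interaction, adjusted p = 0.00157), a test added after the data had been seen. Its mean normalized count went from 63.7 in Input to 116 in IP in replicates 1 to 3 (n = 3 each) and from 106 to 29.5 in replicates 4 and 5 (n = 2 each). The 2 sets cannot be told apart from any batch that the labels do not give.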

How the results depend on the processing

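The count of called arms in BoRed-seq stayed at 1 under every alternative run, including the replicate block, which gave miR-877-5p a log2 enrichment of 2.67; with 2 pairs (r = 0.110) the BoRed-seq libraries share only a number. Over all miRNAs the number enriched in BoRed-seq ran from 71 to 175 under these runs, against 129 in the main fit. In m7G-RIP-seq the 2 called arms became 1 with edgeR and 4 over replicates 4 and 5 alone (miR-877-5p and miR-1224-5p up, miR-877-3p and miR-1226-3p down), and 1 to 2 when 1 replicate was left out. The fit over replicates 4 and 5 called 31.5% of 772 miRNAs depleted. Without Input replicate 4 or IP replicate 1 the 2 were miR-877-5p and miR-1229-3p, not miR-1224-5p. The replicate block, library totals and the term for the sets each gave 3, adding miR-1229-3p, and the block changed no other call of an arm. The calls over all miRNAs moved as well. The main fit called 183 enriched and 200 depleted, edgeR 162 and 180, library totals 232 and 164, and the block 192 and 237. The log2 enrichment of miR-877-3p, 0.02, turned to -0.014 without the count minimum, -0.29 with the replicate block, -0.16 with a term for the sets, -1.91 over replicates 4 and 5 and ran from -0.53 to 0.30 when 1 replicate was left out, below 0 without Input replicate 1 or 2 or IP replicate 1 or 2. That of miR-1226-5p, -0.34, turned to 0.031 with library totals and 0.47 over replicates 4 and 5. The difference of miR-877-5p between the assays, 0.59, turned to -0.22 with library totals and ran from 0.29 to 1.61 when 1 replicate was left out, highest without Ctrl replicate 1. The cause of these changes was not tested. The arm ratio of miR-877 in m7G-RIP-seq kept its call under every alternative run, at 2.76 to 4.83. Depth in Red, with 242085 and 277498 reads, limits every arm but miR-877-5p.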
